A study of Mus musculus with 10 samples.

Results

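The secreted antagonists of Wnt signalling and the intracellular adaptor gene Dixdc1 were followed in hearts 1 week after pressure overload. The set held 10 genes of the 20692 in the deposited table, taken by gene symbol: Sfrp1, Sfrp2, Sfrp4, Sfrp5, Frzb, Wif1, Dkk1, Dkk2, Dkk3 and Dixdc1. The genes were selected on their counts in the sham and TAC libraries, which were already known, so their differences between the groups are given as a description, and their adjusted p-values support nothing. Of the 10 genes, 6 had enough counts to enter the fit over all genes (Sfrp1, Sfrp2, Frzb, Wif1, Dkk3 and Dixdc1), and 4 did not (Sfrp4, Sfrp5, Dkk1 and Dkk2).

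The samples were 9-week-old wild-type FVB/NJ mice, all labelled female, and poly(A) RNA was read from the apex of the ventricles, although 1 label field names the whole heart. One group of 5 animals was sham-operated. The other 5 animals had transverse aortic constriction (TAC) and were studied 1 week later. In this operation a suture narrows the aorta, and the left ventricle has to pump against a higher pressure. The libraries are taken as separate animals because the design text counts mice. FVB/NJ is an inbred strain, and no transgene or drug is named in either group.

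Wnt proteins are secreted lipid-modified ligands that bind Frizzled receptors together with the co-receptors Lrp5 and Lrp6. In the branch that runs through beta-catenin, this stops the destruction of beta-catenin, which then acts with TCF/LEF factors in the nucleus. Secreted antagonists act outside the cell. The Sfrp proteins and Frzb carry a cysteine-rich domain like that of Frizzled receptors and bind Wnts, and Wif1 binds Wnts through a domain of its own. Dkk1 and Dkk2 bind Lrp5 and Lrp6, and Dkk3 is a divergent member of the same family. Dixdc1 is no antagonist: it carries the DIX domain also found in dishevelled and Axin, and has been described as a positive regulator of the pathway. In the heart the pathway is largely quiet in the adult and is known to be drawn on in development and after injury.

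The libraries held 7410967 to 10126574 counts each, and 12001 genes were tested. Levels are CPM, counts scaled to a common library size with TMM factors, and group values are mean ± SD over 5 libraries. Positive log2 fold changes mean a higher level in TAC, and each is followed by its standard error (SE) from the edgeR model. The library labelled TAC replicate 1 stood apart. It held 14 counts of Xist, the RNA of the inactive X chromosome, against 1042 to 1561 in the other 9 libraries, and 155 counts of the Y-linked gene Ddx3y, which was at 0 in all others. This goes against its female label. Results on the members that rest on it and the likeness lists are given with and without it. So are the numbers of called pathway genes and the target genes that rose. Shares over all tested genes, single cell type markers with Nppa, and most other single pathway genes are given with it only. The submitters' processing notes list different aligner versions for the sham and the TAC libraries, and that difference and the operation cannot be told apart. The 8 listed cardiomyocyte markers were abundant in every library, and of the 5 listed atrial markers Sln, Bmp10, Myl7 and Myl4 had 9, 2, 64 and 181 counts over all 10 libraries. The fifth, Nppa, which ventricles under load also express, had 37485 counts and rose by 2.48 ± 0.24 on the log2 scale (adjusted p = 2.71e-05 by edgeR).

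At an adjusted p below 0.05 in the edgeR model, TAC was higher for 4 of the 6 tested genes and lower for 2. Over all tested genes the share called was 35.8%, with 18.8% higher and 17% lower, and 50.4% had an estimate on the higher side. For Sfrp1, Frzb and Dkk3 the lowest TAC library exceeded the highest sham library, which held for 12.2% of all tested genes. For Dixdc1 the reverse held, as for 11.6% of all tested genes, and 23.7% were separated one way or the other. The median log2 fold change of all tested genes was 0. Since the genes were picked with these values in view, nothing is read from the counts of members.

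**Figure D1:**
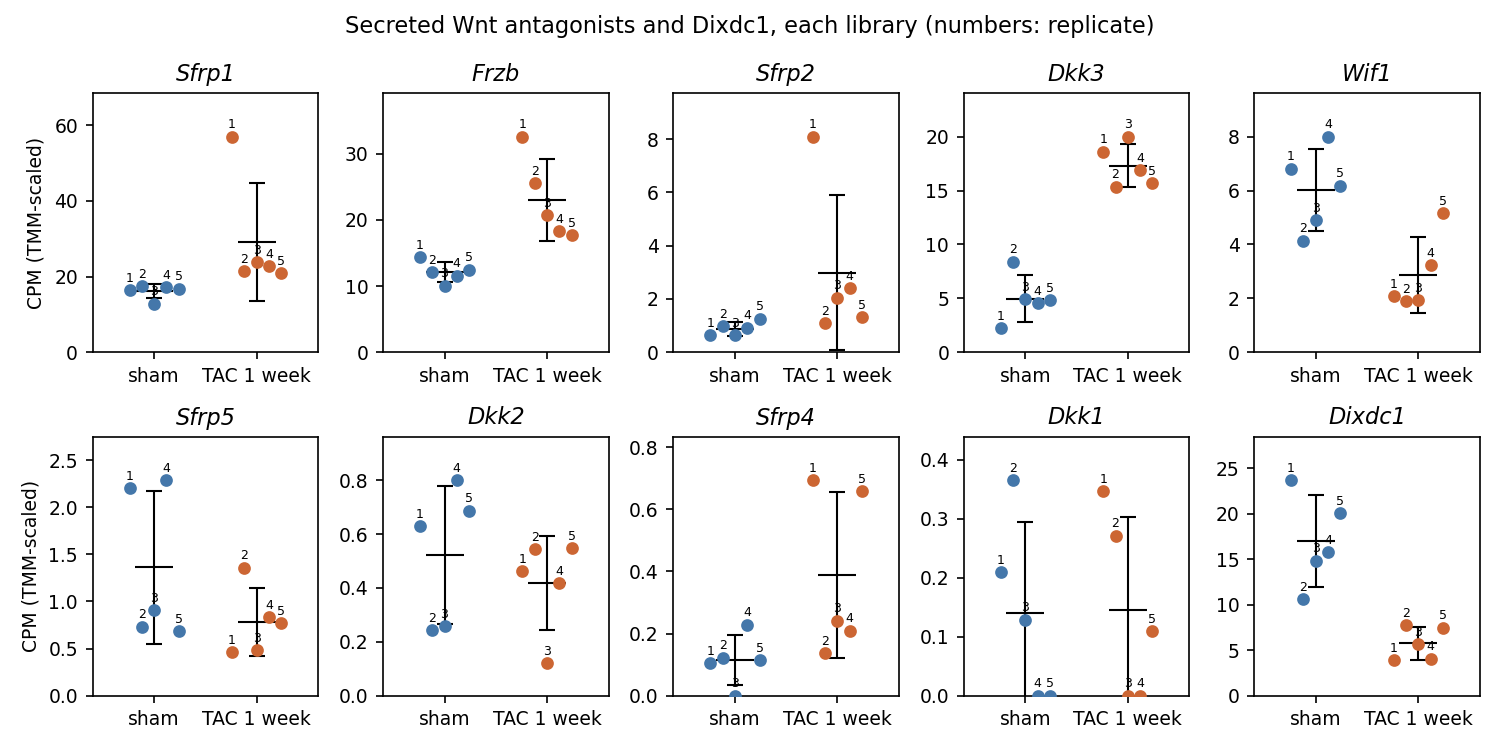
Level of each of the 10 genes in each library (CPM over TMM-scaled library size, vertical axis, own scale per gene and starting at 0) in sham and in TAC after 1 week; small numbers are replicate numbers, and black marks show mean ± SD over 5 libraries. Sfrp1, Frzb, Dkk3 and Dixdc1 separate the groups with every library. Sfrp1 and Sfrp2 have 1 high TAC library (replicate 1), and the TAC value of Wif1 in replicate 5 lies among the sham values.

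Among the Sfrp family, Sfrp1 (ENSMUSG00000031548, chromosome 8, 23411502 to 23449632, GRCm38) was at 16.5, 17.4, 12.8, 17.2 and 16.8 CPM in sham replicates 1 to 5. It was at 57.0, 21.5, 23.9, 22.7 and 20.9 CPM in TAC replicates 1 to 5. All TAC values lay above the sham values, but 4 of them by little and replicate 1 by far. The means were 16.1 ± 1.91 in sham and 29.2 ± 15.6 CPM in TAC, a log2 fold change of 0.85 ± 0.26. Without TAC replicate 1 the TAC mean was 22.2 ± 1.33 CPM (n = 4) and the log2 fold change 0.46. The adjusted p moved above the threshold without sham replicate 3 (0.0509 by edgeR) and with robust dispersion estimates (0.0551 by edgeR).

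Frzb (ENSMUSG00000027004, chromosome 2, 80411970 to 80447625), also named Sfrp3 and known as a Wnt-binding protein of cartilage, was at 14.4, 12.1, 10.1, 11.6 and 12.5 CPM in sham. It was at 32.6, 25.6, 20.7, 18.3 and 17.7 CPM in TAC. The groups did not overlap, and TAC replicates 1 and 2 were the highest. The means were 12.1 ± 1.55 and 23.0 ± 6.21 CPM (log2 fold change 0.91 ± 0.16). The log2 fold change was 0.75 when TAC replicate 1 was left out.

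Sfrp2 (ENSMUSG00000027996, chromosome 3, 83766321 to 83774316), a fibroblast product that has also been described as a partner of procollagen processing, was much scarcer. Its counts were 6, 8, 5, 8 and 11 in sham and 70, 8, 17, 23 and 12 in TAC. Apart from TAC replicate 1 these are small numbers, and TAC replicate 2, at 1.09 CPM, lay among the sham libraries, which reached 1.26 CPM. The means were 0.885 ± 0.261 and 2.99 ± 2.90 CPM (log2 fold change 1.75 ± 0.55), so that the SD in TAC was about as large as the mean. Without TAC replicate 1 the TAC mean was 1.71 ± 0.615 CPM (n = 4) and the log2 fold change 0.96. The adjusted p moved above the threshold without sham replicate 1 (0.0540 by edgeR), without sham replicate 3 (0.0535 by edgeR) and with limma-voom (0.0560). The gene dropped below the count filter without TAC replicate 4 or 5. At least 10 counts were reached in sham by replicate 5 alone, with 11, and in TAC by replicates 1, 3, 4 and 5. The gene thus entered the fit mostly through TAC, the group in which it was higher. Its exons overlap those of Gm26771, an antisense gene, over 224 bases in GENCODE M21, and the libraries do not keep the strand, so reads there cannot be told apart. No other gene of the set shares exon bases with another annotated gene.

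Sfrp4 and Sfrp5 had too few counts for the fit. Sfrp4 had 1, 1, 0, 2 and 1 counts in sham and 6, 1, 2, 2 and 6 in TAC, 5 against 17 in all. Sfrp5 had 21, 6, 7, 20 and 6 counts in sham and 4, 10, 4, 8 and 7 in TAC, 60 against 33 in all. Sham replicates 1 and 4 held most of the Sfrp5 counts of their group, and the other 3 sham libraries lay within the TAC range. A difference in Sfrp5 was not detectable at this depth.

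Wif1 (ENSMUSG00000020218, chromosome 10, 121033960 to 121100650) differed in the other direction. It was at 6.81, 4.15, 4.91, 8.01 and 6.18 CPM in sham. It was at 2.08, 1.90, 1.93, 3.24 and 5.16 CPM in TAC. The first 4 TAC libraries lay below every sham library, and replicate 5 lay above sham replicates 2 and 3. The means were 6.01 ± 1.53 and 2.86 ± 1.40 CPM (log2 fold change -1.05 ± 0.27). Leaving out single libraries gave log2 fold changes between -1.38 and -0.93.

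In the Dkk family only Dkk3 was well covered. Dkk3 (ENSMUSG00000030772, chromosome 7, 112116017 to 112159057) was at 2.20, 8.41, 4.91, 4.58 and 4.81 CPM in sham and at 18.6, 15.4, 20.01, 16.9 and 15.7 CPM in TAC. Every TAC library lay above every sham library, and the lowest TAC value was 15.4 against a highest sham value of 8.41. The TAC libraries were close to each other, whereas sham replicates 1 and 2 lay at the ends of a wide range. The means were 4.98 ± 2.22 and 17.3 ± 1.97 CPM, a log2 fold change of 1.81 ± 0.22 or 3.51-fold. Of the rises in the set it rested least on TAC replicate 1, with a log2 fold change of 1.79 without it and a range of 1.61 to 2.08 over all libraries left out in turn. Its log2 fold change stood at percentile 99.1 of all tested genes.

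Dkk1, the best known inhibitor of Lrp5 and Lrp6, was close to absent. It had 2, 3, 1, 0 and 0 counts in sham and 3, 2, 0, 0 and 1 in TAC. A count of 0 allows up to 3 counts, or 0.313 to 0.362 CPM in the 4 libraries without a Dkk1 count, for counting error only. Dkk2 had 6, 2, 2, 7 and 6 counts in sham and 4, 4, 1, 4 and 5 in TAC, 23 against 18 in all. No difference in either gene was detectable at this depth.

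Dixdc1 (ENSMUSG00000032064, chromosome 9, 50662752 to 50739517) had the largest fall of the set. It was at 23.7, 10.6, 14.9, 15.8 and 20.03 CPM in sham. It was at 3.93, 7.75, 5.66, 4.07 and 7.46 CPM in TAC. The groups did not overlap, although sham replicate 2 came close to the highest TAC library. The means were 17.0 ± 5.02 and 5.78 ± 1.81 CPM, a log2 fold change of -1.57 ± 0.23, and the TAC level was 0.336 of the sham level. Leaving out single libraries gave -1.70 to -1.42, with -1.47 without TAC replicate 1. Its log2 fold change stood at percentile 0.1 of all tested genes.

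**Figure D2:**
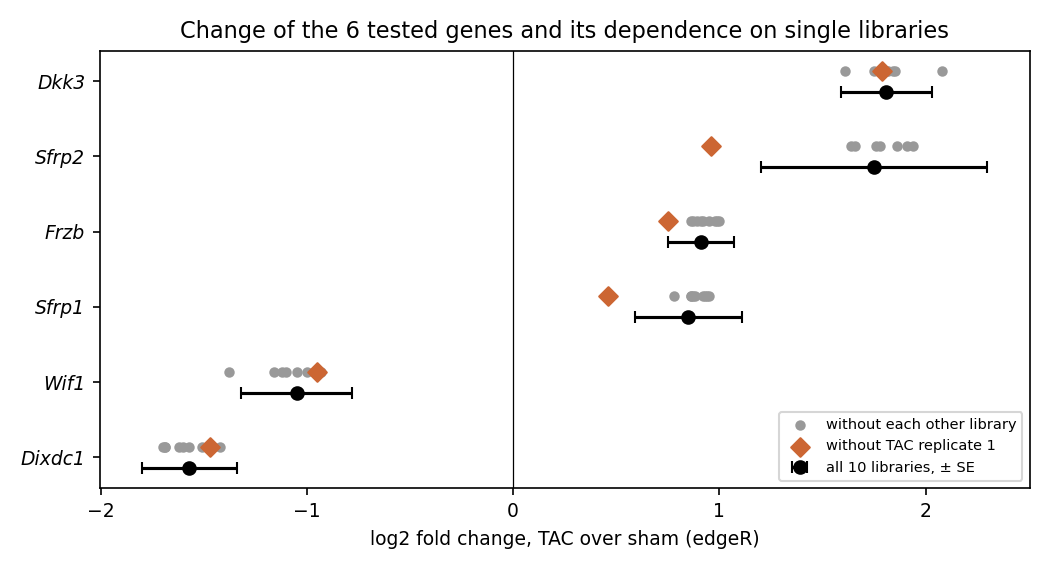
Log2 fold change (TAC over sham, edgeR, horizontal axis) of the 6 tested genes with all 10 libraries (black, ± SE), without TAC replicate 1 (diamond) and without each other library (grey). Without TAC replicate 1, Sfrp1 moved from 0.85 to 0.46 and Sfrp2 from 1.75 to 0.96, while Dkk3 and Dixdc1 moved by less than their SE; for Sfrp2 the fits without TAC replicate 4 or 5 gave no value.

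GENCODE M21 annotates 12 transcripts of Dixdc1. The deposited table holds 1 row for the gene, counted on an annotation that may differ, so which transcripts it covers is not known. RefSeq gives 2 promoter windows (250 bases before to 50 after a start, GRCm38.p6), which are shown because the table cannot say from which of them the lost reads came. The stretches below lie before the start and outside annotated exons, on the minus strand, at chr9:50737736-50737885 and chr9:50728068-50728217, with CG dinucleotides in capitals.
Dixdc1 upstream start: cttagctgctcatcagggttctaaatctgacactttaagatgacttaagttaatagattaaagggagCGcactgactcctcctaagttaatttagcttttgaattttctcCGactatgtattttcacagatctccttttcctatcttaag
Dixdc1 downstream start: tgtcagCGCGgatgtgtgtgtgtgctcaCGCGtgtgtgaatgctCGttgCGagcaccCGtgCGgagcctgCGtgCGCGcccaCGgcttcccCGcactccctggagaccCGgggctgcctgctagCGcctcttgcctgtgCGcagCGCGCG
The upstream stretch holds 2 CG dinucleotides and the downstream one 19. Over the full windows the counts were 3 and 30, against a median of 7 over 32851 RefSeq promoter windows, and the GC content was 41.7% and 67.7% against a median of 52.7%.

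The promoter stretches of Sfrp2, which was higher in TAC, and Wif1, which was lower, are shown in the same way, from the plus strand at chr3:83766171-83766320 and chr10:121033810-121033959.
Sfrp2: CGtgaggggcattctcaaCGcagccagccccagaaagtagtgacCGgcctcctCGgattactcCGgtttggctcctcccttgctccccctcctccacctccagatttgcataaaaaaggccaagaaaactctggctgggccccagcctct
Wif1: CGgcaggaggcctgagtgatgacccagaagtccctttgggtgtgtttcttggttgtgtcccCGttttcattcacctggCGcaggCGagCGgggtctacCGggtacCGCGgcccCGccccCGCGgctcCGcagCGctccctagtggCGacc
Their windows held 22 and 25 CG dinucleotides, both above the median. In all, 7 of the 10 genes matched a RefSeq promoter window, and Sfrp1, Sfrp4 and Dkk3 had none. The windows were searched on both strands for 5 short motifs. The TCF/LEF core, CTTTGA, was found in Frzb at -95 and in Dkk1 at -174 and -117, counted in bases from the start, and is held by 16% of all windows. The TATA box, TATAAA, was found in Dkk1, Dkk2 and Wif1, and in 13.6% of all windows. The E-box, CANNTG, was found in Frzb, Wif1, Sfrp5 and the upstream Dixdc1 window, and in 72.3% of all windows. The AP-1 motif TGANTCA is held by 7.8% of all windows and by none of the members' windows. The same is true of the TEAD motif CATTCC, held by 14.7% of all windows. No match overlapped another. A match is a run of letters and not a measured site.

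Levels between genes were compared per kilobase of exon (CPM per kb). In sham, Frzb and Sfrp1 were level with each other at 3.74 ± 0.480 and 3.69 ± 0.436 CPM per kb. Wif1 followed at 2.48 ± 0.630, then Dixdc1 at 1.70 ± 0.504 and Dkk3 at 1.48 ± 0.661, neighbours within each other's SD. By the longest transcript in place of all exons, Dixdc1 stood at 2.63 ± 0.778 CPM per kb in sham, level with Wif1 at 2.62 ± 0.666 and above Dkk3. Sfrp5 at 0.717 ± 0.426 and Sfrp2 at 0.411 ± 0.121 did not differ beyond their spread either, and Dkk2, Dkk1 and Sfrp4 were at 0.141, 0.0581 and 0.0273. In TAC the order was Frzb at 7.09 ± 1.92, Sfrp1 at 6.67 ± 3.57 and Dkk3 at 5.16 ± 0.587, followed after a gap by Sfrp2 at 1.39 ± 1.35, Wif1 at 1.18 ± 0.576 and Dixdc1 at 0.579 ± 0.181, or 0.895 by its longest transcript. With TAC replicate 1 left out (n = 4), Sfrp2 was at 0.796 ± 0.286 CPM per kb, below Wif1 at 1.26 ± 0.632, and Sfrp1, at 5.08 ± 0.304, was level with Dkk3, at 5.06 ± 0.630. By the means, Dkk3 thus stood below Wif1 in sham and above it in TAC. In sham replicate 2 the order was the reverse, with Dkk3 at 2.50 and Wif1 at 1.71 CPM per kb.

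The mix of antagonist transcripts differed accordingly. As shares of the summed level of the 9 antagonists per kilobase, Frzb was 29.4% ± 2.79 and Sfrp1 29.0% ± 1.27 in sham, and 32.3% ± 4.50 and 28.8% ± 5.46 in TAC. The Frzb shares overlapped between the groups. The Sfrp1 share was 38.4% in TAC replicate 1, and the other 4 TAC libraries, at 25.0% to 27.4%, lay below the sham libraries, at 27.9% to 30.7%. Wif1 was 19.4% ± 3.82 in sham, with libraries from 13.1% to 23.5%, and 5.82% ± 3.60 in TAC, from 2.53% to 11.6%, without overlap. Dkk3 was 11.8% ± 5.32 in sham and 24.3% ± 5.07 in TAC, and the groups overlapped through TAC replicate 1, at 16.3%, which lay below sham replicate 2, at 19.3%. Among the other 4 TAC libraries the lowest Dkk3 share was 23.2%, above every sham library. The summed CPM of the 9 genes, without regard to length, was 42.3 ± 4.38 in sham and 77.0 ± 24.3 in TAC, with TAC replicate 1 at 120 and the other TAC libraries between 62.8 and 69.4.

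**Figure D3:**
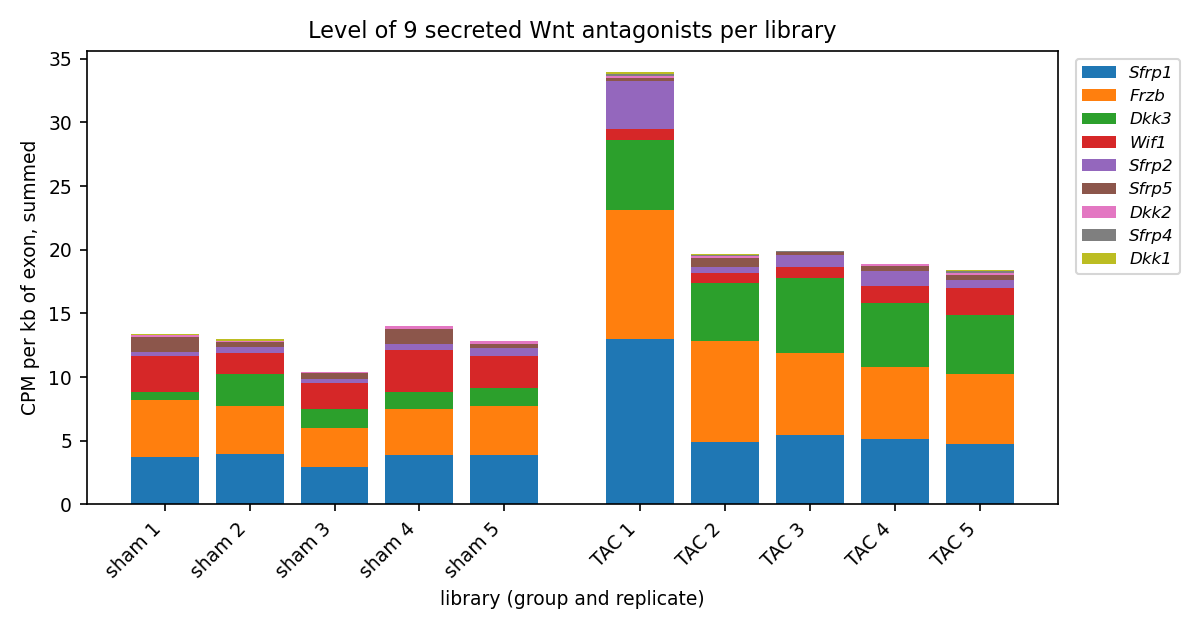
Summed level of the 9 secreted antagonists in each library, in CPM per kilobase of exon (vertical axis from 0), stacked by gene. Frzb, Sfrp1 and Dkk3 together make up most of every bar in both groups. The Wif1 part is smaller in 4 of the 5 TAC bars than in any sham bar, and TAC replicate 1 has the tallest bar.

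Markers of some cell types also differed between the groups. In tissue RNA, fewer cells of a type and less RNA per cell cannot be told apart. The summed level of the 10 listed fibroblast markers was 2253 to 2686 CPM in sham and 3250 to 6182 CPM in TAC, with TAC replicate 1 at 6182 and the other TAC libraries at or below 3457. Of these markers 6 rose, 2 fell and 2 did not pass. Most of the sum came from Gsn, Col1a1 and Col1a2, so it mainly follows these genes. Gsn went from 1599 ± 68.3 CPM in sham to 1152 ± 266 CPM in TAC. Col1a1 went from 307 ± 70.0 to 1351 ± 926 CPM, with TAC libraries from 825 to 2998 CPM. Col1a2 went from 213 ± 40.9 to 904 ± 529 CPM, with TAC libraries from 597 to 1847 CPM. Pdgfra went from 42.1 to 50.5 CPM, and Tcf21 and Dpt were the markers that did not pass. The 9 markers of activated fibroblasts summed to 433 to 716 CPM in sham and 824 to 1970 CPM in TAC, again highest in TAC replicate 1, and 7 of them rose. Acta2 made up most of the sham sum, at 347 ± 93.5 CPM, and did not pass (log2 fold change -0.32 ± 0.17). Lox passed narrowly (adjusted p = 0.0487 by edgeR), at 19.1 ± 23.6 CPM in TAC, and Comp was at 3.72 ± 3.04 CPM. The groups overlapped for Lox and Comp and not for the other markers that rose. All 7 macrophage markers rose. Their sums were 114 to 143 CPM in sham, 191 to 207 CPM in 4 TAC libraries and 316 CPM in TAC replicate 1. Fcgr1 passed narrowly (adjusted p = 0.0463 by edgeR), at 2.70 ± 2.51 CPM in TAC. The calls and means of single markers are given with TAC replicate 1 only. The 8 cardiomyocyte markers summed to 87880 to 106300 CPM in sham and 63480 to 86580 CPM in TAC, and 6 of them fell. The epicardial and mesothelial sums overlapped (27.9 to 52.9 and 30.1 to 60.3 CPM), and Wt1 alone rose among the 5 tested of that list. Of the 3 tested valve interstitial markers Cytl1 and Spock2 fell (-0.75 ± 0.18 and -0.89 ± 0.22), Hapln1 had no count in any library, and the sums overlapped (43.3 to 93.2 and 32.4 to 64.3 CPM). Among endothelial markers 2 of 7 rose, among smooth muscle and pericyte markers 2 of 8 rose, and among nerve and glia markers 1 of 3 tested fell. Over all tested genes 35.8% were called, 18.8% higher and 17% lower. The part of these cell types in the levels of Sfrp1, Sfrp2, Frzb, Dkk3, Wif1 and Dixdc1 was not tested.

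The genes most like a member were taken by the root-mean-square (RMS) difference of log2 CPM, each gene centred on its mean over the 10 libraries, among 11434 genes. Nearest to Dkk3 were Prnd, Lhfpl2 and Mfap2, at RMS differences of 0.257, 0.284 and 0.285 against a median of 1.03 over all candidates. Nearest to Dixdc1 were Lgals4, Cntn2 and Myo5c (0.320, 0.327 and 0.364, median 0.869), with Lgals4 at 36.1 CPM in sham and 11.5 CPM in TAC. That genes near a member share its direction follows from how they were chosen and is no separate result. Nearest to Wif1 were Zc3h6, Tpd52l1 and Sunc1 (0.246, 0.269 and 0.300, median 0.708). Nearest to Sfrp2 were Loxl3, a lysyl oxidase-like enzyme, Wisp2, a matricellular protein, and Serpinb1a (0.372, 0.380 and 0.385, median 0.934). Without TAC replicate 1 none of the 3 genes named for Sfrp2 remained, and 1 of 3 remained for Dkk3, 1 of 3 for Wif1 and 2 of 3 for Dixdc1.

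The rest of the pathway was read from lists of 132 genes by role, of which 129 were in the table and 98 were tested. Of these 18 rose, 11 fell and 69 did not pass, so that 29.6% were called against 35.8% of all genes, with a median log2 fold change of 0.01. Scaled by library totals only, the median of all genes moved by 0.11, and 27 listed genes rose and 9 fell. Without TAC replicate 1, 18 rose and 9 fell. The calls of Fuz, Celsr1 and Pygo2 were then lost, and Tmem88 was called.

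Among the Wnt ligands 6 of 19 were tested, and 2 of them fell and none rose. Wnt5a, a ligand of the branches that do not use beta-catenin, went from 17.8 ± 2.601 to 12.7 ± 2.37 CPM. Its log2 fold change was -0.49 ± 0.13 (adjusted p = 0.0127 by edgeR). Wnt11, of the same kind, went from 5.34 ± 1.57 to 3.33 ± 0.587 CPM (-0.68 ± 0.21, adjusted p = 0.0219 by edgeR), and its call was lost without sham replicate 1 (adjusted p = 0.0588), sham replicate 4 (0.0569) or TAC replicate 3 (0.0570, all by edgeR). The groups overlapped for both. Wnt5b leaned the other way and did not pass (0.44 ± 0.17, adjusted p = 0.0545 by edgeR). When scaled by library totals only, Wnt5b passed (0.55, adjusted p = 0.0188 by edgeR). Of the 2 secretion genes, Porcn and Wls, neither passed.

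Of 14 tested receptors and co-receptors 3 rose and none fell. Ptk7, a co-receptor of planar polarity signalling, went from 9.21 ± 1.61 to 16.9 ± 4.42 CPM without overlap (log2 fold change 0.88 ± 0.18, adjusted p = 0.00207 by edgeR). The receptors Fzd1 and Fzd2 had log2 fold changes of 0.53 each (adjusted p = 0.0206 and 0.0124 by edgeR). The call of Fzd1 was lost without sham replicate 4 (adjusted p = 0.0536 by edgeR). The co-receptors that Dkk1 binds did not pass: the mean of Lrp5 was 156 CPM (sham) and 145 CPM (TAC), and that of Lrp6 81.4 and 76.5 CPM. Of 3 tested R-spondin genes and receptors none passed.

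Among other inhibitors at the cell surface 5 of 15 were tested, and 2 rose. Igfbp4, a binding protein of insulin-like growth factors that also inhibits Wnt signalling, went from 101 ± 2.77 to 155 ± 20.4 CPM. Its log2 fold change was 0.62 ± 0.08 (adjusted p = 0.000113 by edgeR). Apcdd1, a membrane inhibitor, went from 3.98 ± 0.715 to 7.13 ± 1.80 CPM (0.84 ± 0.18, adjusted p = 0.00354 by edgeR). In neither did the groups overlap. Kremen1, which acts with Dkk proteins on Lrp6, did not pass, with means of 289 CPM (sham) and 309 CPM (TAC).

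Of 18 tested genes of dishevelled and the destruction complex, the machinery on which Dixdc1 acts, 3 rose, none fell and 15 did not pass. Those that rose were Ccdc88c, a dishevelled-binding protein (log2 fold change 0.84 ± 0.16), and the casein kinases Csnk1g3 (0.59 ± 0.13) and Csnk1d (0.21 ± 0.06). Dvl1, Dvl2 and Dvl3 had log2 fold changes of 0.04, 0.08 and -0.17, and Axin1 of -0.06, and none passed. Dvl3 passed without TAC replicate 2 (-0.23, adjusted p = 0.0153 by edgeR).

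Among beta-catenin and the TCF/LEF factors 3 of 17 tested genes rose and 4 fell. Pygo1 and Bcl9, which link beta-catenin to chromatin, had log2 fold changes of -0.69 ± 0.08 and -0.54 ± 0.09 (adjusted p = 6.83e-05 and 0.000740 by edgeR). Their relatives went both ways. Bcl9l fell (-0.42 ± 0.09, adjusted p = 0.00383 by edgeR). Pygo2 rose (0.23 ± 0.08, adjusted p = 0.0444 by edgeR), a call lost without TAC replicate 1. Ctnnbip1 also rose (0.26 ± 0.08, adjusted p = 0.0230 by edgeR). The corepressor Tle3 rose by 0.56 ± 0.07 (adjusted p = 0.000113 by edgeR), and Aes, a short relative of the Tle corepressors, had a log2 fold change of -0.28 ± 0.05. Ctnnb1 itself did not pass (0.15 ± 0.06, adjusted p = 0.0554 by edgeR), with means of 314 CPM (sham) and 348 CPM (TAC) and no overlap. It passed with DESeq2 (adjusted p = 0.0378), with library totals only (0.00967 by edgeR) and without sham replicate 2 (0.0396 by edgeR).

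Common Wnt target genes, many of which also answer to other signals, went both ways, with 5 higher, 2 lower and 6 not past the threshold among 13 tested. Wisp2 (log2 fold change 2.02 ± 0.42), Myc, a transcription factor (1.5 ± 0.31), Nkd2, a dishevelled-binding inhibitor (1.38 ± 0.33), Cd44, a hyaluronan receptor (1.32 ± 0.20), and Ccnd1, cyclin D1 (1.05 ± 0.09), rose. When TAC replicate 1 was left out their values were 1.43, 1.24, 1.02, 1.11 and 0.98. Prox1, a homeobox factor, and Tnfrsf19, a receptor, fell, with values of -0.44 ± 0.08 and -0.86 ± 0.28. The call of Tnfrsf19 was lost without sham replicate 3 (adjusted p = 0.0625), sham replicate 5 (0.0717) or TAC replicate 4 (0.0556, all by edgeR). Axin2, the feedback gene most often read as a sign of beta-catenin activity, went from 9.33 to 7.46 CPM (-0.32 ± 0.12, adjusted p = 0.0518 by edgeR) and did not pass. It passed with limma-voom (adjusted p = 0.0464), without sham replicate 4 (0.0444 by edgeR) and without TAC replicate 5 (0.0212 by edgeR). Other settings took Axin2 further from the threshold. When TMM factors were dropped, its log2 fold change shrank to -0.22 (edgeR adjusted p = 0.189). The adjusted p was 0.0776 in DESeq2, and in edgeR 0.0756 under the replicate block and 0.0656 when low counts were kept. Nkd1, Fosl1, Wisp1, Bambi and Twist1 had values of 0.07, 0.63, 0.42, 0.34 and 0.56 and did not pass. Bambi passed without sham replicate 2 (adjusted p = 0.0161), without TAC replicate 2 (0.0479) and with library totals only (0.0466, all by edgeR), and Fosl1 with the replicate block (0.0456 by edgeR).

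Of 20 tested genes of planar polarity and other branches 2 rose and 3 fell. Vangl2, a polarity protein, had a log2 fold change of 0.60 ± 0.16 and Rhoa, a small GTPase, of 0.21 ± 0.06. The cadherins Celsr3 and Celsr1 had values of -0.86 ± 0.23 and -0.25 ± 0.08. The call of Celsr1 was lost without sham replicate 3 (adjusted p = 0.0572), TAC replicate 1 (0.0564) or TAC replicate 2 (0.0525, all by edgeR), and with library totals only (0.206 by edgeR).

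**Figure D4:**
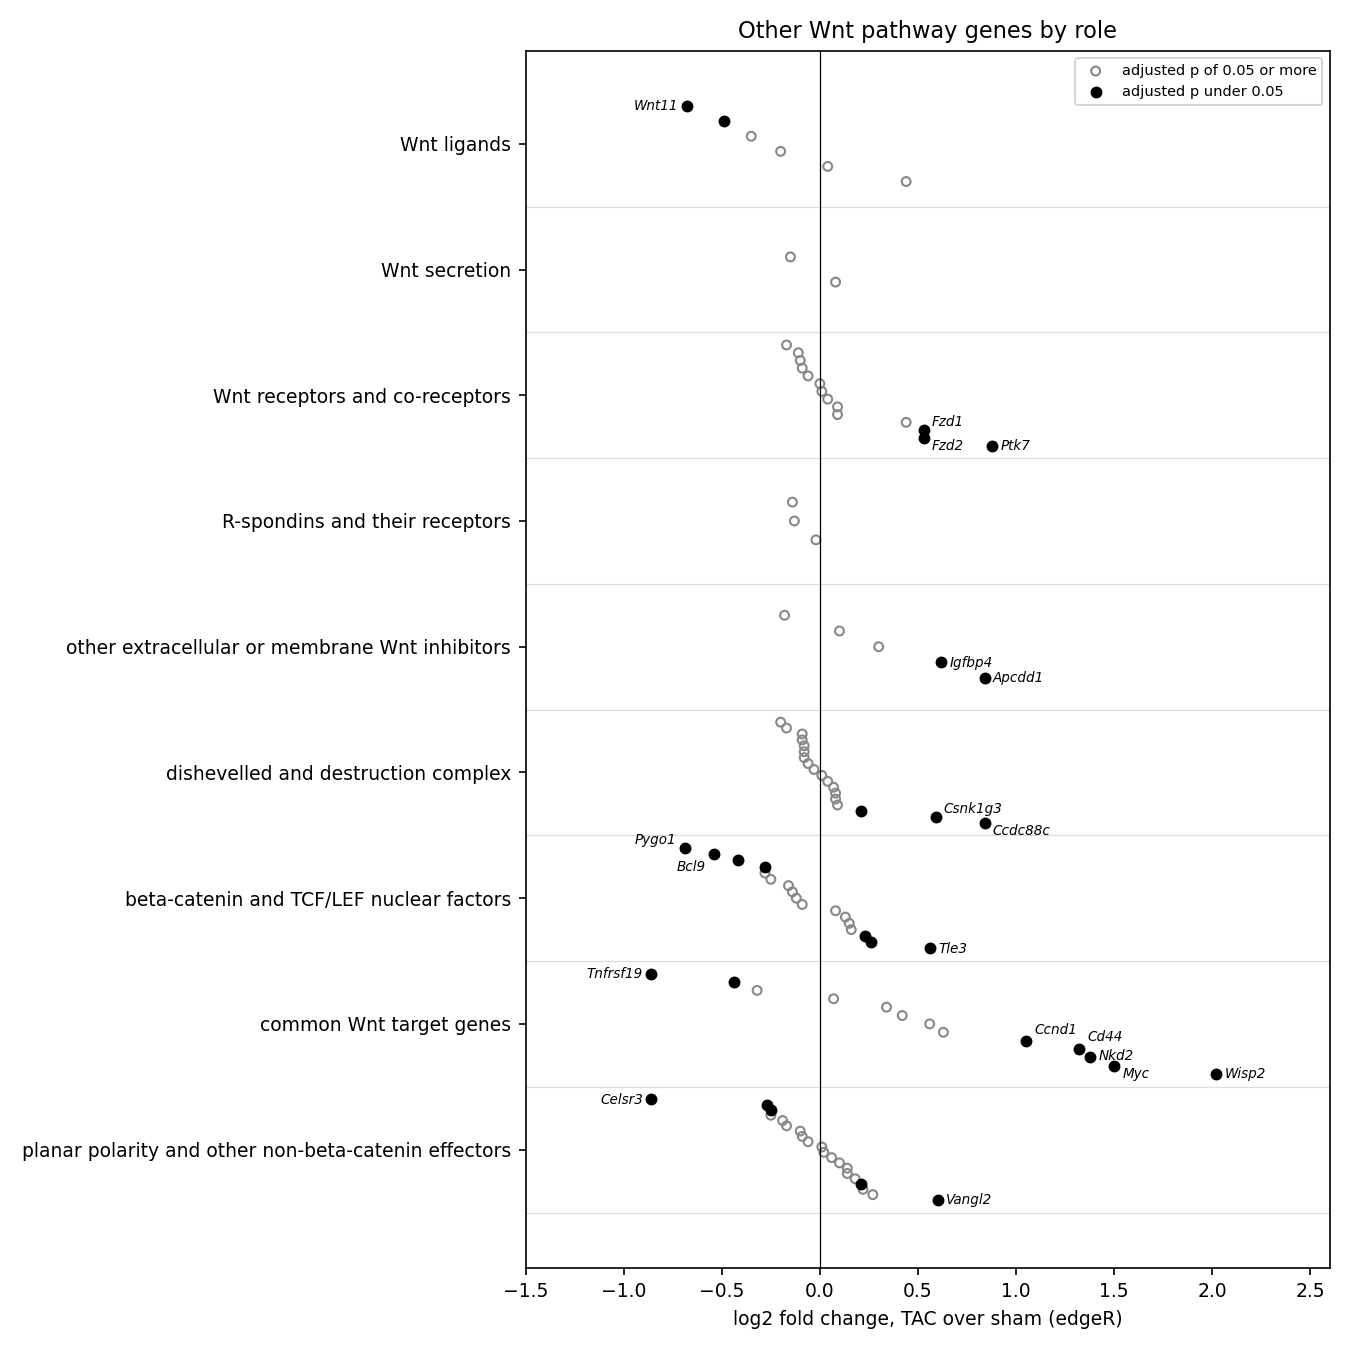
Log2 fold change (TAC over sham, edgeR, horizontal axis) of the 98 other tested Wnt pathway genes, in rows by role; filled points have an adjusted p under 0.05, and those with a log2 fold change of at least 0.5 in size are named. The rows of target genes reach from -0.86 (Tnfrsf19) to 2.02 (Wisp2), while most genes of dishevelled and the destruction complex lie near 0.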

How the data were processed

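The authors deposited unnormalized read counts, 1 row for each Ensembl gene and 1 column for each of the 10 libraries. Per the submitters' processing notes, sham libraries list Bowtie2, TopHat2 2.0.10, HTSeq and mm10, and TAC libraries Bowtie, TopHat 1.3.0, HTSeq, mm9 and mm10. The header names GRCm37 (mm9). Libraries are single-end and unstranded, per the labels' protocols. The sham group is taken from the design text, since the titles of those libraries name no operation. The row of column totals was left out.

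The model was edgeR 4.0.16 under R 4.3.3 (quasi-likelihood, TMM, filterByExpr with minimum count 10 and total 15, group only, all 10 libraries, Benjamini-Hochberg over 12001 genes at 0.05). Log2 CPM used a prior count of 2. Alternatives used DESeq2 1.42.0 and limma 3.58.1. Tested on simulated data for this comparison with 12001 genes, the fit recovered 71.6%, 89.6% and 97% of genes changed 1.5-fold, 2-fold and 4-fold. Of its calls there, 6.01% were false. The simulation changed only 67, 67 and 66 genes at these folds, used the dispersions of the fit and held no outlying library. In the data 35.8% of genes were called and TAC replicate 1 stood apart, so these rates need not hold for them. Lengths and coordinates are from GENCODE M21 (GRCm38), matched by Ensembl ID, and promoters from RefSeq (GRCm38.p6). Members and lists were chosen with earlier results of these data known. Named genes were all members, up to 4 called genes per list with the smallest adjusted p, all tested target genes and the 3 genes most like each of 4 members; other genes were named after their values were seen.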

Additional observations from a re-analysis of the deposited data

Results flagged for a closer look

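In each of 22 groups of 5 values (10 genes and the summed antagonists, in sham and in TAC) the highest and the lowest library were compared with the nearest one, and 5 stood apart. By chance about 1 in 20 groups would. In TAC, replicate 1 was far above the rest for Sfrp1 (57.0 CPM, a gap of 0.917 of the range), for Sfrp2 (8.09 CPM, 0.812) and for the summed antagonists (120 CPM, 0.885). In sham, replicate 3 was below the rest for Sfrp1 (12.8 CPM, 0.789) and for the summed antagonists (34.6 CPM, 0.772). The sums contain Sfrp1, so these are not separate findings.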

How the results depend on the processing

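The counts of called genes and the members' fold changes were recomputed under 18 alternatives, 10 of which left out 1 library; Sfrp2 gave a value in 16. Levels per kilobase were recomputed by the longest transcript, and the likeness lists without TAC replicate 1. Levels per kilobase and pool shares in TAC without that library were added after seeing the data, and marker sums and marker calls had no alternative. The directions of the 6 tested members held in every fit that gave a value. Frzb, Wif1, Dkk3 and Dixdc1 stayed past the threshold in all 18. Of the counts of called genes, 71 of 72 stayed within 1.5 times the value reported. The exception was the number of all genes lower in TAC, 2040, which became 1159 with library totals only, beside 3257 higher in place of 2251. The shared replicate numbers did not pair the libraries (correlations of same-numbered deviations of -0.09 to 0.22). With the replicate block 2113 genes were higher and 1924 lower, and 19 and 10 of the listed pathway genes. With the longest transcript in place of all exons, Dixdc1 moved from 1.14 to 1.76 CPM per kb (mean of 10 libraries). Depth limits Sfrp4, Sfrp5, Dkk1 and Dkk2, with 22, 93, 12 and 41 counts over all libraries.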

Other observations

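Within the sham group, Dkk3 and Dixdc1 had their extremes in the same 2 libraries and in opposite order. Sham replicate 1 had the lowest Dkk3 (2.20 CPM) and the highest Dixdc1 (23.7 CPM), and sham replicate 2 the highest Dkk3 (8.41 CPM) and the lowest Dixdc1 (10.6 CPM). The summed activated fibroblast markers were 455 CPM in sham replicate 1 and 716 CPM in sham replicate 2, the highest of the sham group. The lowest sum, 433 CPM, was in sham replicate 4, with Dkk3 at 4.58 CPM and Dixdc1 at 15.8 CPM, inside their sham ranges. In sham most of this sum was Acta2 (347 ± 93.5 CPM), and a tie to Dkk3 or Dixdc1 was not tested. Sham replicates 1 and 4 were the highest of their group in Sfrp5 (2.20 and 2.29 CPM) and in Wif1 (6.81 and 8.01 CPM), while their epicardial and mesothelial sums were 52.9 and 27.9 CPM, the highest and the lowest of the sham group.

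Cthrc1, a secreted glycoprotein tied to Wnt signalling and listed among the other inhibitors, had too few counts for the fit, with 7 counts over the sham libraries and 106 over the TAC libraries. Of the latter, 86 were in TAC replicate 1 and 20 in the other 4 TAC libraries. Its levels were 0.105 to 0.244 CPM in sham, 0.362 to 0.815 CPM in those 4 TAC libraries and 9.94 CPM in TAC replicate 1. It was named after its values were seen.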
